A study of Mus musculus with 12 samples.

Results

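Chemoattractant receptors steer neutrophils from the marrow to a site of inflammation, and 9 of their genes were followed through all 12 RNA-seq libraries of the series. The genes were Cxcr2, Cxcr4, Ccr1, Ccrl2, C5ar1, Fpr1, Fpr2, Ltb4r1 and Ptafr. They were chosen by symbol, with earlier results of these data known, and each was found once among the 28987 genes of the deposited table. Mice of the FVB strain received 2 mL of thioglycollate in the peritoneum, which draws neutrophils into the cavity, and cells were then sorted from the bone marrow (BM) and the peritoneum (PT) of each mouse. The BM cells therefore also came from injected mice, and no group here was left untreated.

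Wild-type (WT) mice were compared with MRP8-Bcl2 mice, which carry human BCL2 under the regulatory regions of human MRP8, a gene of the myeloid lineage, so that their neutrophils resist apoptosis. Each site and genotype had 3 libraries, and the 4 groups are called BM WT, BM Bcl2, PT WT and PT Bcl2. The labels give 6 h between injection and collection, where the study's methods give other times. They name macrophages as the source and state no age. The series' design text names neutrophils. The study's RNA-seq methods describe sorted cells without their gates, and its flow cytometry methods identify neutrophils as CD11b-positive, F4/80-negative, GR1-high cells. The deposited values are TPM, a share of the transcripts of a library that takes transcript length into account, on the log2(TPM + 1) scale. Levels of different receptors are therefore set side by side as TPM, though effects of the cDNA amplification on single genes were not measured.

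Most of these receptors span the membrane and signal through inhibitory G proteins, which turn a gradient of ligand into directed movement. CXCR4 holds neutrophils in the marrow through CXCL12, CXCR2 releases them and draws them along CXC chemokines, and receptors for C5a, formyl peptides and leukotriene B4 guide the last steps toward a target. Ligand binding is followed by phosphorylation, arrestin binding and internalisation, so an RNA level does not give the level at the cell surface.

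The promoters of 4 receptors are shown because the results turn on them. Ccrl2 and Ptafr had the largest changes between the sites, and Cxcr2 and Cxcr4 are the receptors for release from and retention in the marrow. The 250 bases upstream of the RefSeq start of transcription (GRCm38.p6) are written 5′ to 3′ on the strand of the gene, with capitals for matches to any of 8 motifs. They are chr9:111057519-111057768 (minus strand) for Ccrl2, chr4:132563817-132564066 (plus strand) for Ptafr, chr1:74153744-74153993 (plus strand) for Cxcr2 and chr1:128592300-128592549 (minus strand) for Cxcr4.
Ccrl2: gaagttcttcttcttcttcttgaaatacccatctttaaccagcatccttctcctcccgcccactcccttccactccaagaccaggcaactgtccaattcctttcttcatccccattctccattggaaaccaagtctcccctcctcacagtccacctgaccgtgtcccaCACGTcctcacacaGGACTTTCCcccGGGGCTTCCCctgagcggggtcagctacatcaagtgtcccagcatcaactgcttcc
Ptafr: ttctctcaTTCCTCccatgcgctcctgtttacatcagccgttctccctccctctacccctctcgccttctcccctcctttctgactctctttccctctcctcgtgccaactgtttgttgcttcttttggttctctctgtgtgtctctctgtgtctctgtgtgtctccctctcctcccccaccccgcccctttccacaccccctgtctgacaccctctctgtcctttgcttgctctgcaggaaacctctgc
Cxcr2: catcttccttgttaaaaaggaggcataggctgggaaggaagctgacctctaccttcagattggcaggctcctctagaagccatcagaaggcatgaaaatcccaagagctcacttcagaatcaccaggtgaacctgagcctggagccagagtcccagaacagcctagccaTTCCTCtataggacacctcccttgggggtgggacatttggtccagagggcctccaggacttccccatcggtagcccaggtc
Cxcr4: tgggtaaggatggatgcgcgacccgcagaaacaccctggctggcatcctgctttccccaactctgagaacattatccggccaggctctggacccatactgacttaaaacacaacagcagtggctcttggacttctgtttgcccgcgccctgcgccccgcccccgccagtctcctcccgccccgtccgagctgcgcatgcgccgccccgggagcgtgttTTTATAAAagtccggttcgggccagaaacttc

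The motifs searched on both strands were a kappa B site (GGACTTTCC), the NF-kappa B consensus, the ETS core bound by PU.1 (GAGGAA), C/EBP (TTGCNNAA), AP-1 (TGANTCA), the cyclic AMP response element (TGACGT), the hypoxia response core (ACGTG) and the TATA box (TATAAA). The motifs were chosen after the promoters of the 9 receptors had been read. Across all 32817 RefSeq windows of 300 bases, which run from 250 bases before to 50 after a start, 0.344% held that kappa B site, and Ccrl2 was the 1 of the 9 receptors that did, 68 to 60 bases before the start. Of 3 RefSeq starts of Ccrl2, the one nearest to the start of the GENCODE gene model was used. Its promoter also held the NF-kappa B consensus on both strands 56 to 47 bases before the start and the hypoxia response core. The consensus was found in 8.46% of all windows and in 2 of the 9 receptors, Ccrl2 and Ccr1. The hypoxia response core was found in 19.6% of windows, and Ccrl2 was the 1 receptor with it. Ccrl2 was also the 1 receptor with a cyclic AMP response element, which lay past the start and was present in 7.51% of windows. The PU.1 core was present in 5 of the 9 receptors, Ptafr and Cxcr2 among them, and in 28.3% of windows. The TATA box was present in 3 of the 9 and in 13.6% of windows, and in Cxcr4 the matches on both strands overlapped 32 to 25 bases before the start. C/EBP and AP-1 letters were in none of the 9 windows and in 10.8% and 7.81% of all windows. These are matches of letters only, and no binding was measured.

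The sorted cells carried neutrophil RNA. The summed level of 6 neutrophil genes (S100a8, S100a9, Ly6g, Retnlg, Csf3r and Mmp8) was 76447 to 348447 TPM in the BM libraries and 12576 to 63636 in the PT libraries, whereas 12 macrophage genes summed to 17.9 to 202 TPM in all 12 libraries. Gata6, which defines resident peritoneal macrophages, was listed at 0 in all BM and all PT Bcl2 libraries and reached 0.603 TPM in PT WT. C1qa and Lyve1 were also at 0 in all PT Bcl2 libraries. Other genes of this list were present. Adgre1 measured 11.7 to 14.7 TPM in PT WT and 0 to 6.94 in BM WT, against 0.532 to 5.57 in PT Bcl2 and 2.08 to 18.5 in BM Bcl2. Csf1r measured 29.1 to 48.2 TPM in PT WT and 15.7 to 96.7 in PT Bcl2, and C1qb reached 32.7 in PT Bcl2. Of the other lists, 8 genes of immature neutrophils summed to 16721 to 45175 TPM in BM and 346 to 1171 in PT, 4 monocyte genes to 446 to 2176 in BM and 52.0 to 120 in PT, and 5 B cell genes to 27.7 to 262 in BM and 239 to 1410 in PT. Erythroid genes (5) reached 487 TPM in BM and 5.49 in PT, eosinophil genes (5) 210 and 33.7, T cell genes (4) 61.0 and 174, and mast cell genes (5) 78.0 and 678, the last in library 12. In bulk libraries, fewer cells of a type and less RNA per cell cannot be told apart. The part of these lists in the receptor results was not tested.

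One library differed from the others of its genotype label in its level of mouse Bcl2. Mouse Bcl2, which was high in the other transgenic libraries, measured 166 to 333 TPM in BM Bcl2 and 82.8 and 58.6 in PT Bcl2 libraries 7 and 8, against 0.219 to 2.37 over the WT libraries, but 0.695 in the library labelled PT Bcl2 number 9. The transgene is human BCL2, and how much its reads added to the values of mouse Bcl2 was not tested. Libraries are numbered as in the deposited column names. Values of the receptors without library 9 are given beside their results. A further split lay within PT. Genes with a transcript that holds 31 or more A, or T, bases in a row took 15.5% of the TPM in library 7 (PT Bcl2) and 20.0% in library 12 (PT WT), 50.8 to 65.6% in the other 4 PT libraries and 8.93 to 24.1% in BM. One read on a transcript of 1 kb was worth an estimated 0.348 to 1.62 TPM, so the rarer receptors rested on few reads in some libraries.

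All 9 receptors were above 1 TPM in all 12 libraries and were tested with the other genes. All are protein coding, and their positions are those of GENCODE M21 on GRCm38, which may not be the build of the authors' files. Groups were compared with limma on the log2(TPM + 1) values of 13456 genes, and a gene passed the test (was called) when it changed 2-fold or more with a p, adjusted by the method of Benjamini and Hochberg, under 0.05. Values are given in the order of libraries 4, 5 and 6 for BM WT, 10, 11 and 12 for PT WT, 1, 2 and 3 for BM Bcl2 and 7, 8 and 9 for PT Bcl2. The plot of levels by library shows their order and spread.

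**Figure D1:**
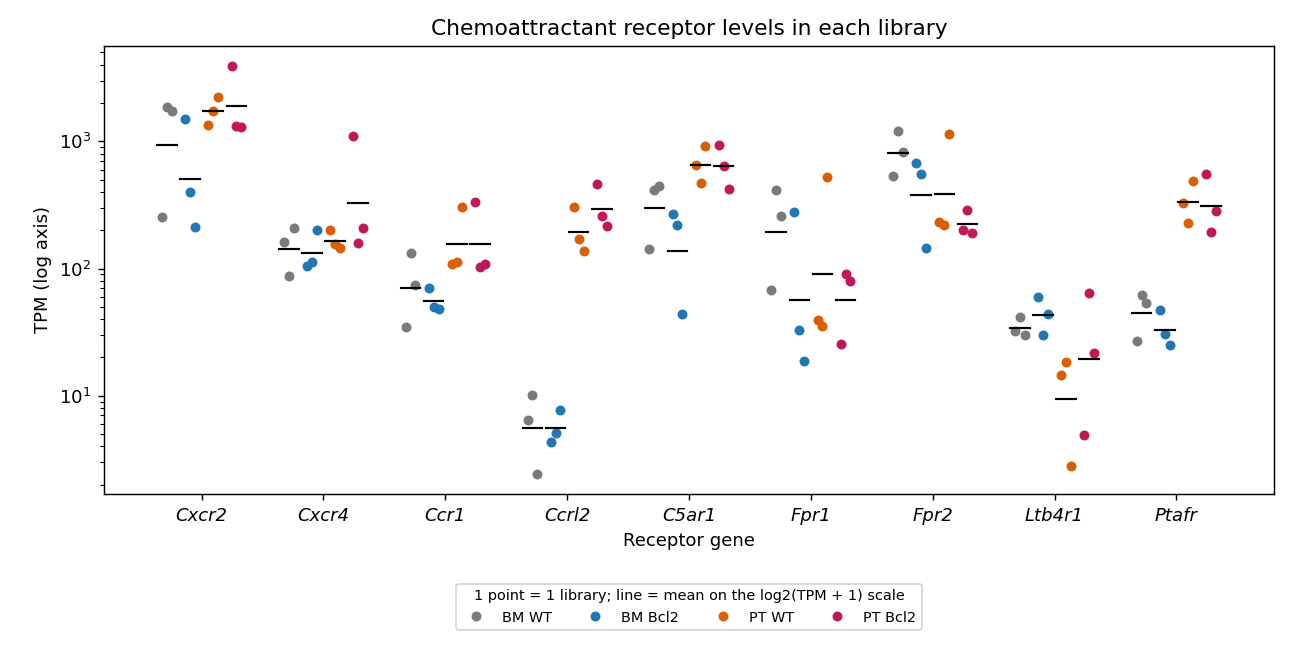
TPM of each receptor gene (log axis) in the 12 libraries, with 1 point per library and a line at the group mean on the log2(TPM + 1) scale. For Ccrl2 and Ptafr all 6 PT points lie above all 6 BM points, whereas for the other 7 genes the ranges of the PT and BM points overlap.

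Cxcr2, the receptor for the CXC chemokines made at inflamed sites (chromosome 1, 74153989 to 74161246, plus strand), had the highest mean TPM of the 9 in every group. Its level was 253, 1864 and 1730 TPM in the marrow of WT mice and 1333, 1718 and 2236 in their peritoneum. With the transgene the marrow libraries gave 1493, 399 and 212 TPM, and the peritoneal libraries gave 3914, 1325 and 1290. One BM WT library and 2 BM Bcl2 libraries were below all PT libraries, while the remaining BM libraries lay among them. From BM to PT the log2 fold change was 0.88 (SE 0.80; adjusted p = 0.633) for WT and 1.91 (SE 0.80; adjusted p = 0.0971) for MRP8-Bcl2, so Cxcr2 did not pass limma's test in either genotype. Without library 9 the change in MRP8-Bcl2 was 2.18 (adjusted p = 0.105).

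Cxcr4, the receptor for CXCL12 (chromosome 1, 128588199 to 128592293), measured 162, 87.1 and 209 TPM in WT marrow and 201, 157 and 144 in WT peritoneum. The transgenic marrow libraries gave 104, 112 and 200 TPM, and the transgenic peritoneal libraries 1100, 158 and 207. Library 7 held more than 5 times the Cxcr4 of any other library, and the remaining PT values lay within the BM range. It did not pass the test, with a log2 fold change of 0.21 (SE 0.66; 95% confidence interval -1.19 to 1.604) for WT and 1.31 (SE 0.66; adjusted p = 0.160) for MRP8-Bcl2, where it was 1.64 (0.126) without library 9.

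The balance of the retention and release receptors was measured as the difference of log2(TPM + 1) between Cxcr4 and Cxcr2 within each library, which a factor common to a library moves little. It averaged -2.70 ± 1.91 (SD, n = 3) for BM WT and -1.91 ± 1.88 for BM Bcl2, against -3.37 ± 0.62 for PT WT and -2.51 ± 0.63 for PT Bcl2. Cxcr2 exceeded Cxcr4 in all 12 libraries, and the spread was wide in BM, where the values ran from -4.40 to -0.08. PT was lower than BM by 0.64 on average over the genotypes, with a p of 0.425 in the exact two-sided permutation test within genotype.

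Ccr1, a receptor for CCL3 and related CC chemokines (chromosome 9, 123962124 to 123968692), measured 35.0, 133 and 73.9 TPM in WT marrow and 109, 113 and 302 in WT peritoneum. Transgenic libraries gave 70.4, 50.3 and 48.4 TPM for marrow and 332, 103 and 109 for peritoneum. The highest values were again those of libraries 7 and 12. The groups did not overlap in MRP8-Bcl2 but did in WT. Ccr1 did not pass the test, with a log2 fold change of 1.13 (SE 0.64; adjusted p = 0.396) for WT and 1.47 (SE 0.64; adjusted p = 0.110) for MRP8-Bcl2, or 1.72 (0.106) without library 9. Averaged over both genotypes the change was 1.30 (SE 0.45; adjusted p = 0.0566).

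Ccrl2, an atypical receptor that binds the chemoattractant chemerin without signalling through G proteins (chromosome 9, 111054486 to 111057519), rose most of the 9 receptors. WT marrow held 6.47, 10.1 and 2.44 TPM of it and WT peritoneum 303, 170 and 138. Transgenic marrow held 4.30, 5.07 and 7.74 TPM and transgenic peritoneum 464, 259 and 214. All 6 PT libraries were far above all 6 BM libraries, and Ccrl2 moved from the lowest mean level of the 9 receptors in BM to the 5th highest in PT. By limma the log2 fold change was 4.88 (SE 0.60; adjusted p = 0.00103) for WT and 5.50 (SE 0.60; adjusted p = 0.000185) for MRP8-Bcl2. The call was kept in each of the 12 fits without 1 library in both genotypes, and without library 9 the change in MRP8-Bcl2 was 5.73 (adjusted p = 0.00072).

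The rise of Ccrl2 was also larger than that of Ccr1 within libraries. Ccrl2 was below Ccr1 by 3.43 ± 1.10 (SD, n = 3) on the log2 scale in BM WT and by 3.11 ± 0.63 in BM Bcl2, and above it by 0.31 ± 1.32 in PT WT and 0.92 ± 0.42 in PT Bcl2. Library 12 was the 1 PT library in which Ccrl2 stayed below Ccr1. The difference moved by 3.89 between BM and PT, with an exact permutation p of 0.005, the smallest this design allows, and an adjusted p of 0.015 over the 3 pairs of receptors tested this way. Within each genotype alone the exact permutation p was 0.1, again the smallest possible with 3 libraries a group. These tests reused the Ccrl2 values already compared by limma, so they are no separate support for the rise of Ccrl2.

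**Figure D2:**
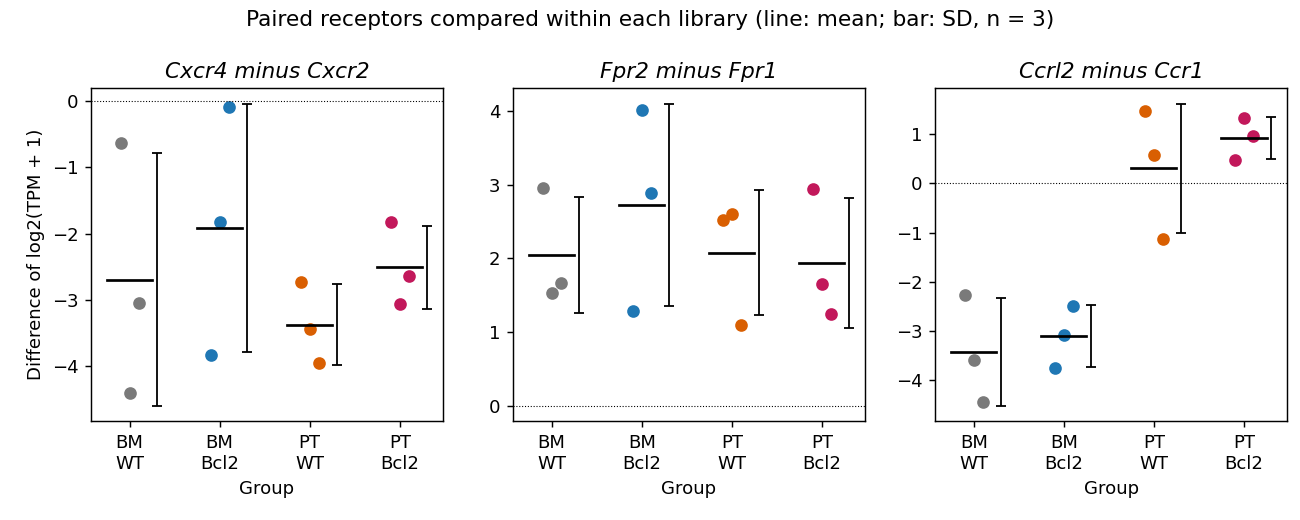
Difference of log2(TPM + 1) between paired receptors within each library, by group, with 1 point per library, a line at the mean and a bar for the SD (n = 3). Ccrl2 minus Ccr1 is below -2 in all 6 BM libraries and above it in all 6 PT libraries, whereas the groups overlap for the other pairs.

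C5ar1, the receptor for the complement fragment C5a (chromosome 7, 16246743 to 16259540), passed the test in MRP8-Bcl2. WT marrow held 144, 410.5 and 447 TPM and WT peritoneum 651, 469 and 922. Transgenic marrow held 270.5, 218 and 44.1 TPM and transgenic peritoneum 940, 642 and 425. PT lay above BM in each genotype without overlap. The log2 fold change was 1.14 (SE 0.67; adjusted p = 0.422) for WT, 2.20 (SE 0.67; adjusted p = 0.0317) for MRP8-Bcl2 and 1.67 (SE 0.47; adjusted p = 0.0238) averaged over both. The MRP8-Bcl2 call was lost when library 3, 7 or 8 was left out (adjusted p of 0.149 at most), and the averaged call when library 3 or 4 was left out (0.0643 at most) or low genes were not filtered (0.0542). With libraries 7 and 12 both left out the adjusted p was 0.0870 for MRP8-Bcl2 and 0.0779 for the average. The MRP8-Bcl2 call was also lost in a fit of the MRP8-Bcl2 groups alone (0.0873), with no filter on low genes (0.0663) and with no mean trend (0.0526), and kept without library 9 (2.49; adjusted p = 0.0364).

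Fpr1 and Fpr2, receptors for formyl peptides of bacteria and mitochondria, lie in opposite directions on chromosome 17 with 3883 bases between them (17876471 to 17883940 and 17887824 to 17893952). In GENCODE Fpr2 overlaps Fpr3 on the same strand, so reads of these paralogs may have been divided uncertainly. Fpr1 measured 67.8, 416 and 259 TPM in WT marrow against 39.7, 35.5 and 526 in WT peritoneum. Transgenic marrow gave 277, 33.1 and 18.9 TPM against 25.4, 90.9 and 79.7 for transgenic peritoneum. Its groups overlapped widely, and 1 library stood above the other 2 in PT WT (library 12) and in BM Bcl2 (library 1). Fpr2 measured 531, 1204 and 824 TPM in WT marrow against 233, 221 and 1132 in WT peritoneum. Transgenic marrow gave 679, 549 and 146 TPM against 200.4, 287 and 190.2 for transgenic peritoneum, so the sites overlapped in both genotypes through libraries 12 and 3.

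Neither formyl peptide receptor passed the test. Fpr1 had a log2 fold change of -1.08 (SE 1.10) for WT and 0.02 (SE 1.10) for MRP8-Bcl2. Fpr2 had -1.06 (SE 0.69) and -0.77 (SE 0.69), and the adjusted p-values of both genes ran from 0.435 to 0.995. Library 12 was the highest PT library for both genes. With libraries 7 and 12 left out, the WT change was -2.34 (adjusted p = 0.257) for Fpr1 and -1.83 (adjusted p = 0.149) for Fpr2. Without library 9 the MRP8-Bcl2 changes were -0.22 and -0.66 (adjusted p = 0.921 and 0.577). Fpr2 exceeded Fpr1 in all 12 libraries, by 1.10 to 4.01 on the log2 scale, and the difference moved by -0.38 between BM and PT (exact permutation p = 0.480).

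Of the receptors for lipids, Ptafr, which binds platelet-activating factor (chromosome 4, 132564067 to 132582683), rose in both genotypes. WT marrow held 26.8, 61.4 and 53.2 TPM and WT peritoneum 328, 229 and 484. Transgenic marrow held 46.9, 30.4 and 25.02 TPM and transgenic peritoneum 549.7, 192 and 282. As for Ccrl2, all 6 PT libraries exceeded all 6 BM libraries. Its log2 fold change was 2.87 (SE 0.55; adjusted p = 0.0129) for WT and 3.20 (SE 0.55; adjusted p = 0.00235) for MRP8-Bcl2. The WT call was lost when library 4 or 10 was left out (adjusted p of 0.0626 at most), while the MRP8-Bcl2 call was kept in all 12 such fits. Without library 9 the change in MRP8-Bcl2 was 3.26 (adjusted p = 0.00592).

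Ltb4r1, the high-affinity receptor for leukotriene B4, lies 823 bases from Ltb4r2 (chromosome 14, 55765962 to 55768494). WT marrow held 32.4, 41.9 and 29.9 TPM and WT peritoneum 14.5, 18.6 and 2.82. Transgenic marrow held 60.1, 30.3 and 43.9 TPM and transgenic peritoneum 4.90, 64.2 and 21.7. The groups did not overlap in WT but did in MRP8-Bcl2, where library 8 held the highest value of all. The lowest values, in libraries 7 and 12, rested on an estimated 6.88 and 9.84 reads. Ltb4r1 did not pass the test, with a log2 fold change of -1.75 (SE 0.83; adjusted p = 0.308) for WT and -1.10 (SE 0.83; adjusted p = 0.354) for MRP8-Bcl2, or -1.17 (0.403) without library 9. Averaged over both genotypes the change was -1.43 (SE 0.59; adjusted p = 0.1).

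Across the 9 receptors, 2 passed limma's test as higher in PT in WT, Ccrl2 and Ptafr, where 1.59% of the 13456 tested genes did, and none passed as lower, where 1.22% did. In MRP8-Bcl2, 3 were higher, with C5ar1 in addition, beside 2.31% of all tested genes, and none was lower beside 19.1%. Averaged over both genotypes, a comparison that uses the same libraries again, the same 3 were higher beside 5.13% and none was lower beside 14.1%. At an unadjusted p under 0.05 and any fold, 0 receptors were lower in WT, 0 in MRP8-Bcl2 and 1, Ltb4r1, in that average, beside 6.32%, 32.7% and 25.1% of all tested genes. By groups that did not overlap, Ccrl2, Ptafr and C5ar1 were higher in PT in WT (14.9% of all genes) and Ltb4r1 was lower (7.97%). In MRP8-Bcl2, these 3 and Ccr1 were higher (5.18%) and no receptor was lower (32.6%). All 6 PT libraries exceeded all 6 BM libraries for 2 receptors, beside 2.58% of genes. The 9 receptors were chosen with earlier results of these data known, so these counts are not those of a blind choice.

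**Figure D3:**
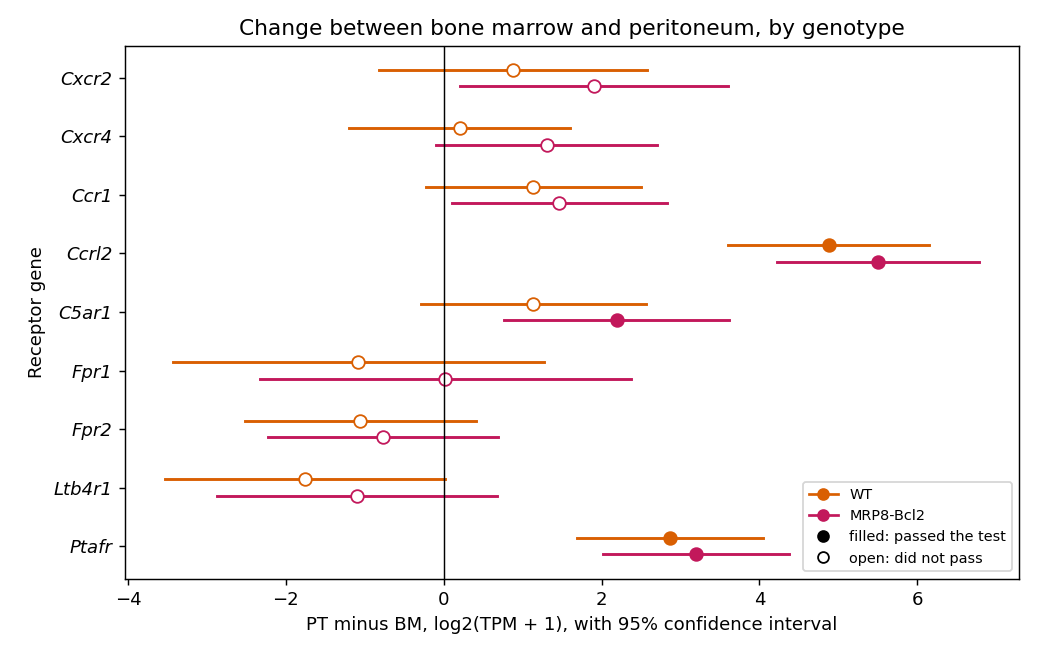
Log2 fold change of each receptor from BM to PT in WT and in MRP8-Bcl2, as points with 95% confidence intervals, filled where the gene passed the test. The intervals of Ccrl2 and Ptafr lie above 1 in both genotypes, and those of Cxcr4, Fpr1, Fpr2 and Ltb4r1 include 0 in both.

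The median log2 fold change of the 9 receptors was 0.88 in WT and 1.47 in MRP8-Bcl2, beside medians of 0.22 and -1.02 over all tested genes. The shift of all genes depended on the scaling. It was 0.57 in MRP8-Bcl2 after the libraries were centred on their medians, -0.53 with the genes with A or T runs left out and close to 0 after quantile normalization, where the median of the receptors was 3.05, 2.24 and 1.83. Under these scalings 6, 6 and 4 receptors passed as higher in MRP8-Bcl2, beside 12.2%, 4.04% and 5.04% of the genes tested in each, so the share of all genes that passed moved as well. In WT the receptor median ran from 0.67 to 1.41, and Ptafr lost its call when libraries were centred (adjusted p = 0.05004), which left Ccrl2 alone beside 0.832% of all genes. The signs of Cxcr4 in WT, of Fpr2 and Ltb4r1 in MRP8-Bcl2 and of Fpr1 averaged over both genotypes turned under at least 1 scaling. Ccrl2, Ptafr, C5ar1, Ccr1 and Cxcr2 were higher in PT in both genotypes under each of the 5 scalings, called or not.

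**Figure D4:**
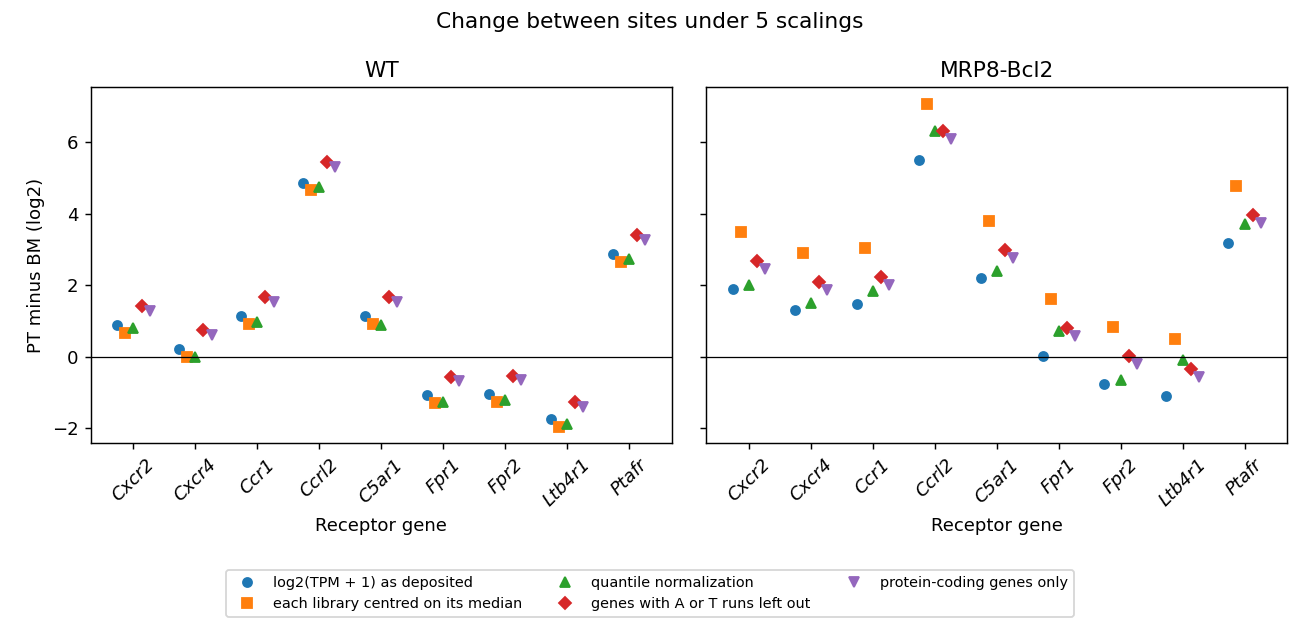
Log2 fold change of each receptor from BM to PT under 5 scalings, in WT (left) and MRP8-Bcl2 (right), with 1 symbol per scaling. Ccrl2 stays above 4 and Ptafr above 2 in each panel, while Fpr2 and Ltb4r1 in MRP8-Bcl2 lie on both sides of 0.

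The share of each receptor in the summed TPM of the 9 is the same under any factor that scales a whole library. The sum ran from 746 to 4228 TPM over the 6 BM libraries and from 2818 to 7530 over the 6 PT libraries. Cxcr2 held 37.3 ± 15.0% (SD, n = 3) of it in BM WT and 44.8 ± 8.9% in PT WT. Fpr2 held 31.1 ± 10.02% in BM WT and 26.9 ± 10.2% in BM Bcl2, but 11.2 ± 7.0% in PT WT and 6.20 ± 3.30% in PT Bcl2. All 6 PT shares of Fpr2 were below all 6 BM shares, though the highest PT share, 19.2% in library 12, was close to the lowest BM share, 19.6% in library 3. A share also falls when the other receptors rise. The TPM of Fpr2 itself overlapped between the sites in both genotypes and did not pass the test.

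The shares of Ptafr and Ccrl2 did not overlap between the sites. Ptafr held 1.45 to 3.35% in the BM libraries and 6.16 to 10.2% in the PT libraries, and Ccrl2 held 0.0673 to 1.04% and 2.35 to 9.43%. C5ar1 held 11.1 ± 1.3% in BM WT and 17.0 ± 2.9% in PT WT without overlap, but its shares overlapped in MRP8-Bcl2. These shares, drawn as bars of receptor make-up, were not tested.

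**Figure D5:**
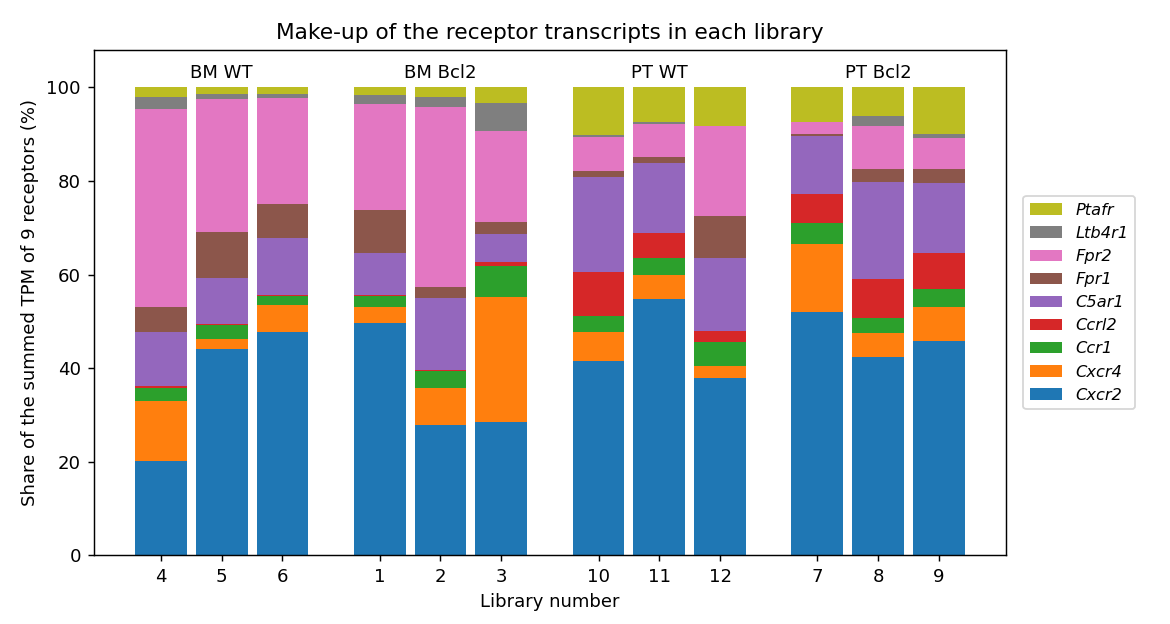
Share of each receptor in the summed TPM of the 9 genes, as 1 stacked bar for each of the 12 libraries, ordered by group. Fpr2 takes 19.6 to 42.2% in BM and 2.66 to 19.2% in PT, and Ccrl2 exceeds 2% in PT alone.

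Of the 32 pairs of neighbours in the order of levels within a group, 10 were apart in all 3 libraries by a mean above their SD. In BM WT, Cxcr2 exceeded Fpr2, the next in order, by 0.21 ± 1.13 on the log2 scale (SD, n = 3), and in BM Bcl2 by 0.40 ± 0.81, so the top 2 receptors of the marrow were not separated. In PT, Cxcr2 exceeded C5ar1, the next, by 1.39 ± 0.43 in WT and 1.57 ± 0.51 in MRP8-Bcl2 and in all 6 libraries. Fpr2 exceeded C5ar1 in all 6 BM libraries, by 1.44 ± 0.51 in WT and 1.45 ± 0.22 in MRP8-Bcl2. Toward the bottom, Ptafr exceeded Ccrl2 by 2.37 ± 0.80 in BM Bcl2, Ltb4r1 exceeded Ccrl2 by 2.43 ± 0.65 in BM WT, and in PT WT Cxcr4 exceeded Ltb4r1 by 3.99 ± 1.14, in all 3 libraries each.

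No receptor differed between the genotypes by the test. In BM, 0 of 9 passed, beside 0.0223% of all genes, with log2 fold changes of MRP8-Bcl2 over WT from -1.77 for Fpr1 (95% confidence interval -4.12 to 0.58) to 0.32 for Ltb4r1 (-1.45 to 2.09). In PT, 0 of 9 passed, beside 0.0297%, with changes from -0.80 for Fpr2 (-2.26 to 0.66) to 0.99 for Cxcr4 (-0.41 to 2.39). None of the 9 was below an unadjusted p of 0.05 in either site, where 7.36% of all genes were in BM and 12.7% in PT, and the values overlapped between the genotypes for each receptor. The intervals include differences of more than 2-fold, so the test does not show that the genotypes were alike. Without library 9 the differences in PT ran from -0.90 for Fpr1 to 1.33 for Cxcr4 (adjusted p of 0.416 to 0.998), and 0 of 9 passed.

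The change between sites itself was not shown to differ between the genotypes. In the interaction of site and genotype, 0 of 9 receptors passed, beside 0.0149% of all genes, with no unadjusted p under 0.05 (16.9% of all genes) and adjusted p-values from 0.524 to 0.886. The interaction was positive for all 9, from 0.29 for Fpr2 to 1.10 for Cxcr4, while its median over all tested genes was -1.18. That contrast depended on the scaling, since the median of all genes was 0.62 after centring and 0.02 after quantile normalization, where the receptors ran from 2.09 to 2.91 and from 0.55 to 1.99. Without library 9 the interaction of the receptors ran from 0.39 for Ptafr to 1.44 for Cxcr4, and 0 of 9 passed. C5ar1, which passed in MRP8-Bcl2 but not in WT, had an interaction of 1.06 (95% confidence interval -0.96 to 3.07).

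Among all tested genes, those whose levels followed a receptor most closely over the 12 libraries were named as a description. For Ptafr they were Slc7a11, Snap23 and Resf1 (Pearson r of 0.984, 0.984 and 0.983), and for Ccrl2 Sgpl1, Gm14654 and Gm11540 (0.982, 0.976 and 0.972). For Cxcr2 they were Grina, Dhrs9 and Cd33 (0.973, 0.972 and 0.968), for C5ar1 Mxd1, Cd33 and Ccl6 (0.971, 0.962 and 0.942) and for Ccr1 Fosl2, Plek and Picalm (0.961, 0.958 and 0.951). Cd33 stood in both the Cxcr2 and the C5ar1 list.

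For the other 4 receptors the values of r were lower. They were 0.933, 0.901 and 0.901 for Ltb4r1 with Borcs6, Heatr6 and Aup1, 0.924, 0.884 and 0.872 for Fpr2 with Stap1, 4933426K07Rik and Dhrs7, 0.903, 0.902 and 0.891 for Cxcr4 with Gm3513, 4930402H24Rik and Gpr84, and 0.902, 0.892 and 0.886 for Fpr1 with Nt5e, Rab11fip4 and Amer2. Among the 9 receptors themselves, r was highest for Ccrl2 with Ptafr (0.929), Cxcr2 with C5ar1 (0.894) and Fpr1 with Fpr2 (0.855), and lowest for Ccr1 with Ltb4r1 (-0.761). All these points share the same libraries and group differences, so the values carry no p.

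Of 30 other chemoattractant receptors, 18 were tested and 7 were listed at 0 throughout. None passed in WT, where 1.59% of all tested genes were higher and 1.22% lower. In MRP8-Bcl2, where these shares were 2.31% and 19.1%, none was higher and 1 fell, Ccr2, the monocyte receptor for CCL2. Transgenic marrow held 43.3 to 213 TPM of Ccr2 and transgenic peritoneum 4.47 to 13.7, a log2 fold change of -3.16 (SE 0.71; adjusted p = 0.00789), while WT libraries held 17.4 to 47.2 and 17.9 to 27.1 (-0.44, SE 0.71). The call was lost after median centring (adjusted p = 0.0941) and with the genes with A or T runs left out (0.0592), and Ccr2 is also among the 4 monocyte markers. After centring 6 of the 18 passed as higher and 0 as lower in MRP8-Bcl2, beside 12.2% and 3.47% of all tested genes. After quantile normalization 4 passed as higher and 1 as lower, beside 5.04% and 5.79%. The median change of this list was 0.71 in WT and 0.64 in MRP8-Bcl2, beside 0.22 and -1.02 over all tested genes.

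Among 24 ligands and enzymes that make or inactivate them, 20 were tested. In WT 4 rose and 1 fell, beside 1.59% and 1.22% of all tested genes. In MRP8-Bcl2 9 rose and 6 fell, beside 2.31% and 19.1%. These MRP8-Bcl2 counts were 10 and 2 after centring, beside 12.2% and 3.47%, and 9 and 3 after quantile normalization, beside 5.04% and 5.79%. Ccl3, a ligand of CCR1, measured 0 to 20.8 TPM over the BM libraries and 244 to 2512 over the PT libraries. Its log2 fold change was 5.58 (adjusted p = 0.00776; 0.0521 without library 10 and 0.0646 with a pseudocount of 0.1) for WT and 7.53 (adjusted p = 0.000579) for MRP8-Bcl2. Cxcl2, a ligand of CXCR2, rose by 5.33 and 4.95 on the log2 scale (adjusted p = 0.00376 and 0.00184). Saa3, an acute phase protein, rose by 5.33 and 4.76 (adjusted p = 0.0412 and 0.0206). Its WT call was lost without library 2, 4, 5, 6, 9, 10 or 11 (adjusted p of 0.148 at most). That call was also lost with a pseudocount of 0.1 (0.142), no filter on low genes (0.115), median centring (0.0581) and no mean trend (0.0566). The MRP8-Bcl2 call of Saa3 was lost without library 1 or 7 (adjusted p of 0.0647 at most). It was also lost with no filter on low genes (0.0582) and in a fit of the MRP8-Bcl2 groups alone (0.0768). Camp, the cathelicidin of secondary granules whose peptide binds FPR2, fell by 7.46 and 6.88 (adjusted p = 1.13e-05 and 1.74e-05), and is also among the immature neutrophil markers.

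Of 22 tested genes coupled to the receptors, none passed in WT and 3 fell in MRP8-Bcl2, Plcb2 (phospholipase C beta) with a log2 fold change of -2.41, Gng5 (a G protein gamma subunit) with -1.54 and Rac1 (a small GTPase of actin assembly) with -1.28, beside 19.1% of all genes that passed as lower. Of 14 tested genes of desensitisation, none passed in WT, and in MRP8-Bcl2 2 rose and 4 fell, beside 2.31% and 19.1% of all tested genes. Rgs1 (2.35) rose and Rgs19 (-3.37), Rgs18 (-2.78) and Grk6 (-2.46) fell, all inhibitors of G protein signalling or receptor kinases. Each of these 7 calls was lost in at least 2 of the 12 fits without 1 library. Without library 9 those of Plcb2, Gng5, Rac1, Rgs1 and Rgs18 were lost. After median centring 3 of the coupled and 4 of the desensitisation genes passed as higher in MRP8-Bcl2, and 0 of either list as lower. Of all tested genes, 12.2% passed as higher and 3.47% as lower under that scaling. The median change of the coupled genes was -0.04 for WT and -0.87 for MRP8-Bcl2, and that of the desensitisation genes -0.62 and -1.31, beside 0.22 and -1.02 over all tested genes.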

How the data were processed

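Neutrophils were sorted into Trizol, their RNA was amplified to cDNA, and all 12 libraries were sequenced in 1 pool. Read processing was done by the authors in AltAnalyze with its default settings. The deposited log2 values are log2(TPM + 1) of each gene in each library. The genome build is not given in the sources used here. Averages, folds and p-values of the authors' own comparisons were not used, nor were 2 columns of values of a library that nothing ties to a sample. Groups came from the column names, which carry no mouse or replicate number, so p-values measure the spread between libraries.

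The 13456 genes that reached 1 TPM in 3 or more libraries were fitted with limma 3.58.1 in R 4.3.3, 4 groups in 1 model with a mean trend and 8 residual degrees of freedom. A gene passed at a Benjamini-Hochberg adjusted p under 0.05 over all tested genes and a change of at least 2-fold, both on the log2(TPM + 1) scale, where the changes of weakly expressed genes are compressed. The interaction used the adjusted p alone. The fit was tested on simulated data. Differences within a library were tested by exact two-sided permutation, 6 against 6 within genotype. Positions came from GENCODE M21 (27475 genes matched by Ensembl ID) and promoters from RefSeq, where all 9 receptors had an entry.

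TPM holds no read totals. Low values of 5009 genes with 1 transcript fell near whole multiples of 1 read (within 0.15) for 70.9 to 78.9% of values, against 30% by chance, which gave the estimated reads. The receptors and gene lists were chosen with earlier results of these data known. Genes named from the lists were at most 4 per list that passed in at least 1 genotype, by the largest mean change, and for each receptor the 3 most correlated genes. C5ar2, Cxcr1 and Ccr1l1, named for the averaged comparison, were outside this rule. The fit without libraries 7 and 12 and the motif search were added after the data had been seen.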

Additional observations from a re-analysis of the deposited data

How the results depend on the processing

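Values below are counts of receptors that passed, or log2 fold changes, under 1 change of the processing at a time. Median centring gave 1 receptor higher in PT for WT, 6 for MRP8-Bcl2 and 5 for the average over both genotypes. Leaving out the genes with A or T runs, or keeping protein-coding genes only, gave 6 for MRP8-Bcl2 and 6 for the average. The share of all tested genes that passed as higher moved too, in MRP8-Bcl2 from 2.31% to 12.2, 4.04 and 4.19% and in the average from 5.13% to 13.02, 8.94 and 8.31% under these 3 settings. An unadjusted p under 0.05 with the 2-fold minimum gave 5 for MRP8-Bcl2, beside 4.53% of all tested genes, and 5 for the average, beside 8.97%. It gave 1 lower for the average, beside 24.4%. An adjusted p under 0.1 gave 5 for the average, beside 7.38%, and array weights gave 1 lower for the average, beside 21.6%. Without 1 library the number higher ran from 1 to 2 for WT, 2 to 4 for MRP8-Bcl2 and 2 to 4 for the average, and the number lower for the average from 0 to 1. The causes of these shifts were not tested.

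Among site changes in WT, Cxcr4 turned to -0.011 under centring and -0.022 under quantile normalization, and without the genes with A or T runs Ccr2 turned to 0.069, Gng5 to 0.25 and Rac1 to 0.18. With protein-coding genes only, Gng5 turned to 0.12 and Rac1 to 0.046. In MRP8-Bcl2, centring turned Fpr2 to 0.82, Ltb4r1 to 0.49, Gng5 to 0.046 and Rac1 to 0.31, and leaving out the genes with A or T runs turned Fpr2 to 0.0069. The averaged change of Fpr1 turned to 0.15 and 0.11 under the same 2 settings. Some differences between genotypes turned as well, though none had passed the test. In BM, Cxcr4 turned to 0.073 under array weights, Ccrl2 to 0.021 with a pseudocount of 0.1 and 0.012 with protein-coding genes, and Ltb4r1 to -0.42 under centring and -0.12 under quantile normalization. In PT, array weights turned Cxcr2 to -0.10, Ccr1 to -0.025 and Fpr1 to 0.46. Without libraries 7 and 12, Cxcr2 turned to -0.21, Ccr1 to -0.067, Fpr1 to 1.16 and Fpr2 to 0.044. Centring turned C5ar1 to 1.02, Fpr1 to 0.40, Fpr2 to 0.27 and Ptafr to 0.97. Quantile normalization, the genes with A or T runs left out and protein-coding genes gave 0.12, 0.17 and 0.13 for C5ar1 and 0.074, 0.12 and 0.081 for Ptafr. None of these reversed values passed the test.

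Leaving out each library in turn reversed some changes that had not passed. For WT the ranges were -0.059 to 1.38 for Cxcr2, -0.15 to 0.47 for Cxcr4 and -0.69 to 0.060 for Gng5, for MRP8-Bcl2 -0.75 to 1.16 for Fpr1, and for the average -1.16 to 0.036 for Fpr1. The interaction ran from -0.21 to 0.82 for Ccr1, -0.40 to 1.06 for Fpr2, -0.18 to 1.56 for Ltb4r1 and -0.086 to 0.68 for Ptafr. Between genotypes in BM the ranges were -0.82 to 0.12 for Ccr1, -0.48 to 0.37 for Ccrl2 and -0.47 to 0.16 for Cxcr4, and in PT -0.33 to 0.25 for C5ar1, -0.55 to 0.48 for Ccr1, -0.40 to 0.40 for Cxcr2, -1.34 to 0.59 for Fpr1 and -0.51 to 0.25 for Ptafr. Within libraries, the move of Ccrl2 against Ccr1 stayed between 3.60 and 4.25 with an exact permutation p of 0.005 to 0.01, and those of Cxcr4 against Cxcr2 and of Fpr2 against Fpr1 between -1.12 and -0.12 and between -0.74 and -0.06.

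No paired analysis was possible because the columns of the table carry no replicate or mouse number, although each mouse gave both sites. TPM tables hold no depth, so the precision of low receptors such as Ltb4r1 rests on an estimate of reads. Libraries 7 and 12 held the top values of Cxcr2, Ccr1, C5ar1 and Ptafr in their groups. The genotypes were compared with 3 libraries a group, 1 of which (library 9) lacked the mouse Bcl2 level of the others with its genotype label.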

Other observations

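The enzymes that make or inactivate the ligands of the 2 lipid receptors were singled out after their values had been seen. Those that make leukotriene B4, the ligand of Ltb4r1, passed limma's test as lower in PT for MRP8-Bcl2. In that comparison 19.1% of all tested genes passed as lower, and the median log2 fold change of all tested genes was -1.02. Lta4h, the hydrolase of the last step, measured 94.3 to 164 TPM in BM Bcl2 and was listed at 0 in 2 PT Bcl2 libraries and at 12.7 in the other. Its log2 fold change was -5.82 (adjusted p = 0.00233) for MRP8-Bcl2 and -3.41 (adjusted p = 0.0858) for WT. The lipoxygenase Alox5 and its partner Alox5ap changed by -2.34 and -2.11 (adjusted p = 0.0298 and 0.0112) for MRP8-Bcl2 and by -2.46 and -1.91 (adjusted p = 0.0779 and 0.0582) for WT. The calls of Lta4h and Alox5ap were kept in 12 of 12 fits without 1 library and that of Alox5 in 9, being lost without library 1, 2 or 9 (adjusted p of 0.105 at most). The call of Alox5 was also lost with no filter on low genes (0.0532) and in a fit of the MRP8-Bcl2 groups alone (0.0832). All the scalings tried kept the direction of these genes, but centring, quantile normalization, leaving out the genes with A or T runs and keeping protein-coding genes each ended the calls of Alox5 and Alox5ap and none ended that of Lta4h.

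For platelet-activating factor, the ligand of Ptafr, Lpcat2, an acyltransferase of its synthesis, and Pla2g7, a hydrolase that inactivates it, passed as higher in PT for MRP8-Bcl2. The log2 fold changes were 2.72 (adjusted p = 0.0409) and 1.96 (adjusted p = 0.0397), and for WT 1.00 (adjusted p = 0.623) and 2.25 (adjusted p = 0.0736). Of all tested genes, 2.31% passed as higher and 19.1% as lower in MRP8-Bcl2. Lpcat2 reached 1263 TPM in 1 PT Bcl2 library against 85.9 and 133.6 in the other 2. Lpcat1, the other acyltransferase of this kind, fell in MRP8-Bcl2, from 24.2 to 29.97 TPM in BM to 1.12 to 3.72 in PT, by 3.27 on the log2 scale (adjusted p = 0.00337), and changed by -1.80 in WT (adjusted p = 0.135). Its call was kept in 12 of 12 fits without 1 library and lost after centring (0.0811). Fits without 1 library kept the call of Lpcat2 in 9 of 12 and that of Pla2g7 in 7 of 12. The call of Lpcat2 was lost without library 2, 3 or 7 (adjusted p of 0.147 at most) and that of Pla2g7 without library 2, 3, 7, 8 or 9 (0.140 at most). The call of Lpcat2 was also lost with no filter on low genes (0.0858), with no mean trend (0.0539), with array weights (0.0509), in a fit of the MRP8-Bcl2 groups alone (0.112) and without libraries 7 and 12 (1.54; adjusted p = 0.0917), and that of Pla2g7 with no filter (0.0645) and no trend (0.0596).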
